A study of Mus musculus with 6 samples.

Results

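Transporter genes of the ATP-binding cassette (ABC) family that export drugs or lipids, 8 of the 16440 genes measured, were compared between leukemic and normal mouse progenitors. They were picked by gene name, and all 8 were found under these symbols. Abcb1a, Abcb1b, Abcg2, Abcc1, Abcc4 and Abcc5 are known as drug exporters, and Abca1 and Abcg1 as lipid exporters. RNA sequencing covered 6 libraries, 3 of each kind, which the submitters describe as biological replicates without saying whether each came from a separate mouse. The p-values below therefore measure the spread between these libraries. Normal myeloid progenitors (MPs) came from the bone marrow (BM) of FVB N/J mice, where sorting for the phenotype Lin-Sca-1-c-Kit+ admits several progenitor types. The acute promyelocytic leukemia (APL) cells arose in hMRP8-PML/RARα transgenic mice of the same strain, in which the human MRP8 promoter drives the fusion gene in myeloid cells. They carried GFP from the retroviral vector MigR1, were expanded in vivo by transplantation into syngeneic recipients, and were sorted as c-Kit+ GFP+ cells. The labels name no drug treatment for these libraries, and they describe the MPs as normal cells of the same strain, so the effects of the transgene, the vector and the passage through recipients cannot be told apart in this comparison.

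ABC transporters use ATP to move compounds across membranes. Abcb1a and Abcb1b are the rodent genes for P-glycoprotein, which removes many hydrophobic drugs from cells, including anthracyclines. Abcg2 exports drugs, dyes and porphyrins and is known for the dye-effluxing side population of primitive blood cells. The ABCC proteins export conjugates, with glutathione for Abcc1 and with cyclic nucleotides as known substrates for Abcc4 and Abcc5. Abca1 and Abcg1 pass cholesterol and phospholipid to lipoproteins, and both are textbook targets of the liver X receptors, which bind DNA together with a retinoid X receptor.

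Table values are given as scaled fragments, which are estimated fragments per gene multiplied by a factor of the library, or as FPKM, which also divides by transcript length and is the scale used here whenever levels of different genes are set side by side. Before scaling, the MP libraries held between 22976905 and 26932327 fragments and the APL libraries between 20608715 and 28382785. A level of up to 3 fragments in every library of a group was treated as not distinguishable from absence. Over the 14595 genes tested with limma, 3558 (24.4%) were lower and 3167 (21.7%) higher in APL cells at a Benjamini-Hochberg adjusted p under 0.05 and a fold change over 1.5, so that 46.1% of all genes were called in some direction. An adjusted p under 0.05 with no limit on the fold was reached by 67.0% of genes, and the groups did not overlap for 70.9%. Over all genes tested, the log2 fold change had a median of −0.10. Among the MP libraries, library 3 differed most from the others, with a variance 9.01 and 8.93 times that of counting noise against 3.36 times between libraries 1 and 2. Kit, the gene of the sorting antigen, was present in both groups with 72.4 ± 1.96 FPKM in MPs and 40.4 ± 0.623 FPKM in APL cells (SD, n = 3, limma adjusted p = 5.9e-06). Ly6a, the gene of Sca-1, was low in both, at 1.36 and 2.18 FPKM. The granulocyte precursor enzyme Mpo stood at 3549 and 8354 FPKM on average.

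The promoters of 4 members are shown because their genes cover the whole range of responses described below, from the deepest decrease to the increase with the lowest adjusted p. The sequences are the 250 bases before the start site that the deposited table and RefSeq share, on GRCm38, written in the direction of transcription. They lie at chr5:8797897-8798146 on the plus strand for Abcb1b, chr6:58596422-58596671 on the plus strand for Abcg2, chr4:53159896-53160145 on the minus strand for Abca1 and chr14:118706220-118706469 on the minus strand for Abcc4. Capitals mark matches to the motifs named in the next paragraph.
Abcb1b: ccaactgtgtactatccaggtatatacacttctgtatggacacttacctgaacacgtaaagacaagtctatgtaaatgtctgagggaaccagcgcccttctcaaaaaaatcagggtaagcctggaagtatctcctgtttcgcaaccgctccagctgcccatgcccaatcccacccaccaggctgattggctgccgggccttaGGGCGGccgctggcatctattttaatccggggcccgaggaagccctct
Abcg2: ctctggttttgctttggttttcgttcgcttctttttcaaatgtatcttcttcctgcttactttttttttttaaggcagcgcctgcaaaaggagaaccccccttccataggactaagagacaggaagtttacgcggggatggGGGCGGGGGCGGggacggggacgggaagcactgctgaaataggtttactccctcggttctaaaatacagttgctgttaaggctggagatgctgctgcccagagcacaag
Abca1: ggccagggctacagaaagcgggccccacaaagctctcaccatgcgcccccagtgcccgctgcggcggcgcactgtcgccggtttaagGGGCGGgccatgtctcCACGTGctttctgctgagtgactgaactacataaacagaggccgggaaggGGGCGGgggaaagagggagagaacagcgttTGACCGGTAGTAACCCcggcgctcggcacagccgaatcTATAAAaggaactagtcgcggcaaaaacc
Abcc4: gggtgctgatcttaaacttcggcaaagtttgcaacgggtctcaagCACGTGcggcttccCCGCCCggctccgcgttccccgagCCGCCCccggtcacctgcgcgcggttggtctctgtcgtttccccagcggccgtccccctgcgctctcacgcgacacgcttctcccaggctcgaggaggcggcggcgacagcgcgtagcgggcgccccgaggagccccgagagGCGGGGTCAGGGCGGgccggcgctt

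Both strands were searched for promoter motifs. General ones were the GC box with the letters GGGCGG, the E-box with the letters CACGTG, and TATAAA. Further motifs were the antioxidant core spelled TGACNNNGC, the motif of AP-1 proteins spelled TGACTCA, the GATA core spelled AGATAA, and the nuclear receptor element AGGTCA. Pairs of this element with 4 bases between them, the spacing known for liver X receptors, were searched separately. Positions are those of a match's first base, with −1 for the last base before the start site. The Abcb1b window had a GC box at −48 and 9 CpG dinucleotides, and no TATAAA. The Abcg2 window had a pair of GC boxes side by side at −109 and −103. The Abca1 window had TATAAA at −29, GC boxes at −163 and −97 and an E-box at −147. The Abcc4 window was the richest in CpG, with 35 and a GC content of 72.0%, and held GC boxes at −191, −167 and −16, an E-box at −205 and the antioxidant core at −25, directly beside the last GC box. Of 32851 mouse promoter windows of this length, 32.74% held a GC box, 6.021% an E-box, 12.37% TATAAA and 10.16% the antioxidant core. No AP-1 (4.463% of promoters), GATA core (9.988%) or AGGTCA (14.02%) match was in these 4 windows, and none held a spaced pair with up to 2 mismatches in its 12 fixed bases (2.566%). With up to 3 mismatches, a limit chosen after the letters had been read, the Abca1 window held 1 such pair on the minus strand at −67 (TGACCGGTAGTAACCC), as did 18.51% of all promoters. RefSeq promoters were at hand for 6 of the 8 members. Abcg2 had 2 further windows at other start sites, with AGGTCA at −212 and −121 in chr6:58584283-58584532 and at −197 in chr6:58640296-58640545, where 4 GC boxes also lay. A second Abcc4 window (chr14:118676932-118677181) held the antioxidant core at −23. The Abcc5 window had no match to any motif. Abcc1 and Abcg1 had no entry. The single Abcb1a window lay 93001 bp before the start in the deposited table.

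Of the 8 transporter genes, 4 were lower in APL cells (Abcb1a, Abcb1b, Abcg2 and Abca1) and 0 were called higher, beside 24.4% and 21.7% of all genes. The other 4 (Abcc1, Abcc4, Abcc5 and Abcg1) stayed within a fold change of 1.5. In scaled fragments, the groups of all 8 genes were apart without overlap, and 7 of 8 passed an adjusted p under 0.05, beside 70.9% and 67.0% of all genes. Abcb1a is included in these counts and in the 4 lower genes, although it was at the limit of detection in APL cells. It passed the filter on low values only through the MPs, so its place in the counts lends them no support. The members' median log2 fold change was −0.99, beside −0.10 for all genes. With genes at the limit of detection held at that limit, Abcb1a among the members, these medians were −0.66 and −0.08. For each gene alone, the two-sided exact permutation test over the 6 libraries gave p = 0.1, the smallest it can give for 3 against 3. In RNA from sorted pools, fewer cells of a type and less RNA per cell cannot be told apart.

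**Figure D1:**
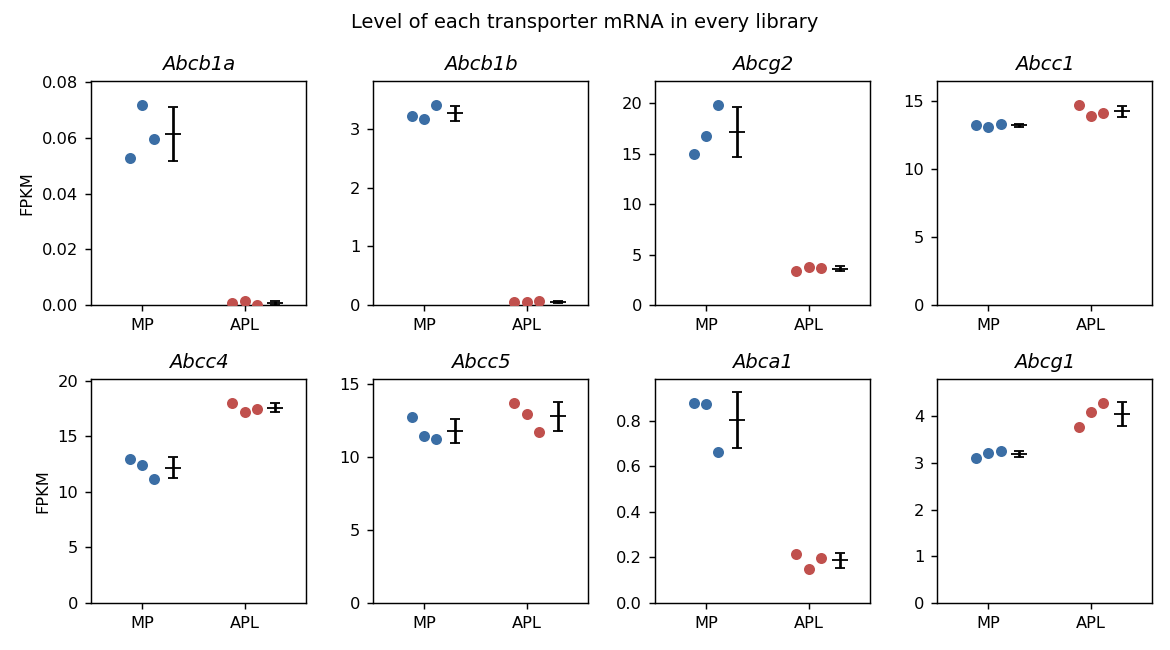
FPKM of the 8 transporter genes in every library, a panel per gene with its own axis from 0. Points are the 3 libraries of normal MPs (blue) and APL cells (red), and the black marks give mean and SD. The 4 genes called lower (Abcb1a, Abcb1b, Abcg2 and Abca1) are widely separated between the groups, while the points of Abcc5 overlap.

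Abcb1b, which lies at chr5:8798147-8866314 on GRCm38, had the deepest decrease of the 8 genes. Its scaled fragments, in the order of the library numbers, were 408, 401 and 432 for MPs against 6.94, 5.88 and 8.64 for APL cells. The MP libraries were close to each other, and every APL library held fewer than 10 fragments, still above the limit of 3. The means of 414 ± 16 and 7.15 ± 1.39 (SD, n = 3) differed by a log2 fold change of −5.68 (SE 0.20, limma adjusted p = 4.8e-08), a 51.3-fold decrease with a 95% interval of 37.6 to 70.2. In FPKM the level went from 3.26 ± 0.127 to 0.0565 ± 0.0107. Of all genes tested, 2.04% had a lower log2 fold change.

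Abcb1a (chr5:8660092-8748570), the other P-glycoprotein gene, was barely detected even in normal MPs. MPs had 7.57, 10.4 and 8.56 scaled fragments, and APL cells 0.130, 0.233 and 0. All APL libraries lay under the limit of detection, which for the library at 0 allows up to 3.70 scaled fragments. Abcb1a passed the filter on low values only through the MPs, so it is described as at least 2.70-fold lower, taking 3 fragments in each APL library. The fitted log2 fold change of −3.13 (SE 0.34, limma adjusted p = 4.7e-05) depends on the pseudocount. In normal MPs the P-glycoprotein mRNA was almost wholly Abcb1b, at 3.26 FPKM against 0.0613 FPKM for Abcb1a.

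The split between both genes is uncertain, because their coding sequences are alike. Aligned over 3822 bases, the coding sequences of Abcb1a and Abcb1b were 88.0% identical and shared a run of 338 bases. Of all stretches of 50 bases in the whole Abcb1a transcript, with its parts outside the coding sequence, 15.5% were also in that of Abcb1b. Abcb4, the third gene of the cluster, was 75.6% identical to Abcb1a and 74.0% to Abcb1b. The deposited values of Abcb1a were not whole fragments, as estimates are that divide fragments between genes. The table's Abcb1a also starts 93001 bp downstream of the RefSeq gene, so fragments from upstream exons of that annotation could be missing from it.

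Abcb1a, Abcb1b and Abcb4 lie next to each other within 299135 bp of chromosome 5, with 49576 bp between Abcb1a and Abcb1b and 27406 bp between Abcb1b and Abcb4. Abcb4 moves phosphatidylcholine across the membrane and is best known from bile. It was the most highly expressed of the 3 in MPs and the most strongly decreased ABC gene, from 4513 ± 468 to 17.6 ± 5.41 scaled fragments (log2 fold change −7.96, SE 0.21, limma adjusted p = 1.4e-08). Its values were 4212, 4275 and 5053 in MPs and 11.8, 22.5 and 18.5 in APL cells. A window of 1 Mb on each side, chosen after the values had been seen, held 13 genes of the table including these 3. On the side of Abcb1a, Rundc3b was at least 13.6-fold lower (44.6 ± 5.95 to 1.49 ± 0.776 scaled fragments), and Adam22 was lower by a log2 fold change of −1.77. On the side of Abcb4, the nearest gene Crot, a peroxisomal carnitine transferase, had a log2 fold change of 0.03 (adjusted p = 0.71), and its groups overlapped. Dbf4, Slc25a40, Dmtf1 and Sri were between −0.54 and 0.43 and were not called, although Slc25a40 passed the fold limit without MP library 3, at −0.59. Farther out, 9330182L06Rik was at least 10.8-fold lower, and 4930420K17Rik, which has the same locus as Dmtf1 in the table, had a log2 fold change of −1.92. Steap4 lay at the limit of detection in MPs and had 4.71, 2.60 and 2.47 scaled fragments in APL cells, at least 1.17-fold more, so that no change over the fold limit is shown for it.

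**Figure D2:**
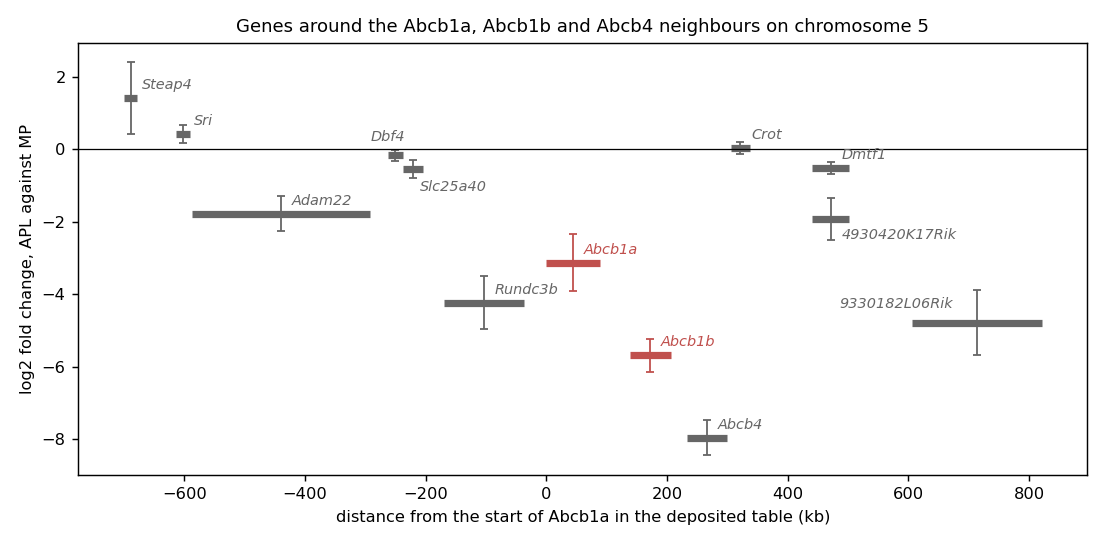
log2 fold change of APL cells against MPs, on log2(scaled fragments + 1), for the 13 genes within 1 Mb of the Abcb1a to Abcb4 cluster. Horizontal bars span each gene's locus as distance in kb from the table's start of Abcb1a, and vertical lines are 95% intervals. Rundc3b, Abcb1a, Abcb1b and Abcb4 (log2 fold changes −4.24, −3.13, −5.68 and −7.96) stand side by side, while Crot on the far side of Abcb4 lies at 0.03. The values and intervals of Rundc3b, Abcb1a, 9330182L06Rik and Steap4 depend on the pseudocount, because each was at the limit of detection in a group.

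Abcg2 (chr6:58596672-58692451) was the most abundant of the 8 mRNAs in normal MPs and was lower in APL cells. MPs had 981, 1101 and 1284 scaled fragments and APL cells 219, 251 and 248. MP library 3, the library farthest from the others of its group, had the highest value, and the lowest MP value was still far above all APL values. The log2 fold change was −2.22 (SE 0.12, limma adjusted p = 4.9e-07), a 4.65-fold decrease with a 95% interval of 3.86 to 5.61. Leaving out any 1 library left it between −2.31 and −2.12. The level fell from 17.2 ± 2.45 to 3.61 ± 0.230 FPKM (SD, n = 3), so that Abcg2 remained detected in all APL libraries.

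The 3 ABCC genes were not called. Abcc4 (chr14:118482692-118706219) had 2107, 2002 and 1814 scaled fragments in MPs and 2885, 2776 and 2818 in APL cells, with no overlap. Its log2 fold change was 0.52 (SE 0.07, limma adjusted p = 2.5e-04), a 1.43-fold difference whose 95% interval of 1.28 to 1.61 spans the limit of 1.5. Abcc5 (chr16:20331304-20426394) had 1775, 1668 and 1512 against 2041, 1966 and 1828 scaled fragments, with a log2 fold change of 0.24 (SE 0.08, limma adjusted p = 0.030). The distance between the groups was small beside the spread within them, and in FPKM they overlapped, with 12.7, 11.5 and 11.2 in MPs and 13.7, 13.0 and 11.7 in APL cells. Its adjusted p was under 0.05 in 11 of 20 alternative settings, which gave 0.014 to 0.40. The 11 include the unadjusted P and the fold limit of 2, where the fit is the one reported. Without MP library 2 or 3 or APL library 1 or 2, the adjusted p lay between 0.052 and 0.099. In FPKM with a pseudocount of 0.1, the log2 fold change was 0.115 (limma adjusted p = 0.26). Abcc1 (chr16:14361558-14474878) had the smallest difference of the 8 genes, with 2238, 2222 and 2293 scaled fragments in MPs and 2487, 2387 and 2389 in APL cells. Its log2 fold change of 0.10 (95% interval −0.04 to 0.24, limma adjusted p = 0.16) turned to −0.03 when libraries were scaled to the same total.

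The order of the drug exporters therefore differed between the groups on the FPKM scale. In MPs, Abcg2 at 17.2 FPKM came before Abcc1 at 13.2, Abcc4 at 12.2 and Abcc5 at 11.8, with Abcb1b and Abcg1 following at 3.26 and 3.19 and Abca1 at 0.804. The ranges of Abcc4 and Abcc5 overlapped, as did those of Abcb1b and Abcg1. In APL cells the order was Abcc4 at 17.6 FPKM, Abcc1 at 14.2, Abcc5 at 12.8, Abcg1 at 4.06 and Abcg2 at 3.61, followed by Abca1 at 0.187 and Abcb1b at 0.0565. Here only the ranges of Abcg1 and Abcg2 overlapped, and Abcb1a was last in both groups.

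Summed over the 6 drug exporters, the level was 57.1, 56.9 and 58.9 FPKM in the MP libraries and 49.8, 47.9 and 47.0 FPKM in the APL libraries. Without Abcg2 the sum was 40.5 ± 1.53 FPKM in MPs and 44.6 ± 1.64 FPKM in APL cells (SD, n = 3). It was thus higher in APL cells with the library factors as deposited. The ABCC genes supplied 37.2 ± 1.61 FPKM of it in MPs and 44.6 ± 1.64 FPKM in APL cells (SD, n = 3). Whether this direction holds under other scalings was not tested. With libraries scaled to the same total, the log2 fold changes in scaled fragments were lower for all ABCC genes. Abcc1 went from 0.10 to −0.03, Abcc4 from 0.52 to 0.39 and Abcc5 from 0.24 to 0.11. As shares of the sum over all 6 drug exporters, Abcg2 went from 29.7% ± 3.71 to 7.49% ± 0.654 and Abcb1b from 5.65% ± 0.111 to 0.117% ± 0.0242. Abcc4 made up 21.1% ± 1.96 in MPs and 36.4% ± 0.691 in APL cells, the biggest share there. The share of Abcc1 was 22.9% in MPs and 29.5% in APL cells, and that of Abcc5 20.5% and 26.5%. For each of these 5 genes the shares of the groups did not overlap, although the levels of Abcc1, Abcc4 and Abcc5 were not called. Because the shares are parts of the same sum, lower shares of Abcg2 and Abcb1b raise those of the ABCC genes even at unchanged levels. The higher ABCC shares are therefore no separate result. In scaled fragments, the groups did not overlap for 70.9% of all genes.

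**Figure D3:**
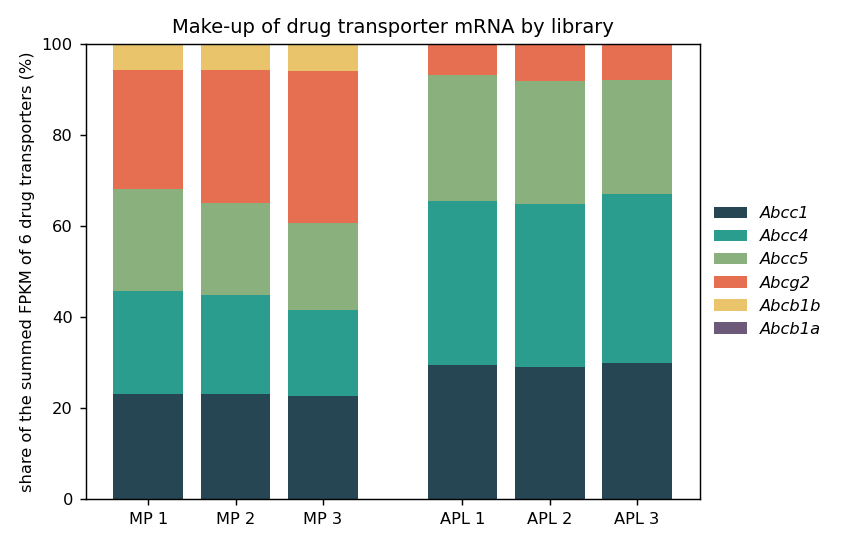
Share of each drug exporter in the summed FPKM of the 6 genes, in percent, a bar per library. Abcg2 holds 26.2% to 33.6% of the bar in MP libraries and 6.75% to 7.97% in APL libraries, where Abcc1, Abcc4 and Abcc5 fill nearly the whole bar.

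The lipid exporters went different ways. Abca1 (chr4:53030789-53159895), which loads cholesterol onto lipid-poor apolipoprotein, had 264, 265 and 199 scaled fragments in MPs and 64.8, 45.9 and 59.2 in APL cells. MP library 3 was the lowest of the MPs but well above the APL libraries. The log2 fold change was −2.08 (SE 0.19, limma adjusted p = 1.6e-05), a 4.23-fold decrease with a 95% interval of 3.12 to 5.73. Abcg1 (chr17:31057694-31117981), which passes sterol on to formed high-density lipoprotein, had 477, 490.3 and 505 scaled fragments in MPs and 582, 639 and 660.3 in APL cells. The groups did not overlap, and the log2 fold change of 0.35 (SE 0.09, limma adjusted p = 0.0064) stayed under the fold limit, at 1.28-fold with a 95% interval of 1.11 to 1.46. Because Abcg1 was the more abundant of both, the summed FPKM of the pair was 4.0 ± 0.0848 in MPs and 4.25 ± 0.248 in APL cells, with overlapping groups.

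Genes that act around the lipid exporters were taken from lists, and their counts stand beside the shares of all genes called. Of 11 tested liver X receptors, partners and sterol regulators, 4 were higher (Nr1h3, Rxra, Insig1 and Srebf2) and 0 lower, beside 21.7% and 24.4% of all genes, with a median log2 fold change of 0.44. Nr1h3, the gene of liver X receptor α, rose from 26.3 ± 2.65 scaled fragments in MPs to 223 ± 26.8 in APL cells (log2 fold change 3.03, SE 0.18, limma adjusted p = 9.7e-07). Its values were 23.4, 28.6 and 27.1 in MPs and 193, 229 and 246 in APL cells. Rxra, the gene of retinoid X receptor α, rose from 1.21 to 7.82 FPKM (log2 fold change 2.68). Nr1h2, the gene of liver X receptor β, was the more abundant receptor in both groups, at 31.8 and 41.5 FPKM, and was not called (log2 fold change 0.36). Insig1, which holds the sterol sensor in the endoplasmic reticulum, and Srebf2, a master factor of cholesterol synthesis, had log2 fold changes of 1.29 and 1.04.

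Of 9 tested liver X receptor targets besides the members, 3 were higher (Smpdl3a, Mylip and Arl4c), 2 lower (Scd1 and Apoe) and 4 not called, with a median of −0.05. Counts of this size are near the shares of all genes, 21.7% higher and 24.4% lower. Apoe, whose protein accepts exported lipid, fell from 142 to 6.92 FPKM (log2 fold change −4.39, limma adjusted p = 4.5e-08). Scd1, a fatty acid desaturase, was at least 20.3-fold lower. Mylip, a ubiquitin ligase, and Smpdl3a, a phosphodiesterase, had log2 fold changes of 1.06 and 1.34, and Arl4c, a small GTPase, of 0.96.

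Of 13 genes of cholesterol uptake and storage, all tested, 5 were higher and 3 lower, beside 21.7% and 24.4% of all genes, and the count of lower genes is at that background. Soat1, which esterifies cholesterol, rose from 9.54 to 41.6 FPKM (log2 fold change 2.17), and Lrp1, Msr1 and Nceh1 were also among the genes that rose. The call of Msr1 was lost without MP library 2 or 3 or APL library 2 (adjusted p of 0.050 to 0.080). Soat2 fell from 3.48 to 0.858 FPKM, and Vldlr and Cd36 were the other genes that fell. The intracellular cholesterol carriers Npc1 and Npc2 and the lysosomal lipase Lipa were not called, with log2 fold changes of 0.24, 0.42 and 0.03.

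**Figure D4:**
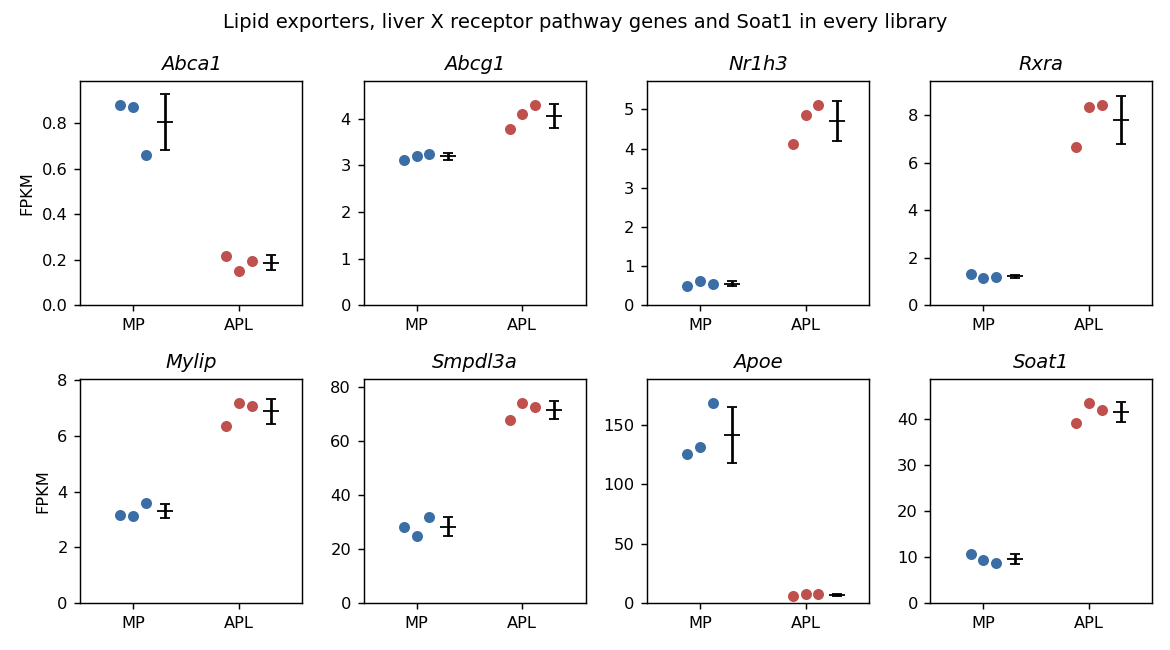
FPKM in every library for the lipid exporters Abca1 and Abcg1, the receptor genes Nr1h3 and Rxra, the receptor targets Mylip, Smpdl3a and Apoe, and Soat1, with axes from 0. Points are libraries of MPs (blue) and APL cells (red), and black marks are mean and SD. Abca1 and Apoe are lower in APL cells (log2 fold changes −2.08 and −4.39), the receptor genes are higher (3.03 and 2.68), and Abcg1 is little changed (0.35).

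The rest of the ABC family was examined from a list of 44 genes, of which 38 were in the table and 34 could be tested. Of these, 5 were lower, 9 higher and 20 not called, and the groups did not overlap for 25, beside 70.9% of all genes, with a median log2 fold change of −0.14. Against 24.4% and 21.7% of all genes, these counts were 5 and 9 of 34. Of the 34, 5 were at the limit of detection in a group. Among these, Abcc8 passed the filter on low values only through the APL cells and Abca4 only through the MPs. Their places in the counts here and by subfamily lend those counts no support. In subfamily A, 2 of 9 tested genes were lower and 3 higher. In subfamily B they were 2 and 0 of 8, in C 0 and 4 of 6, in D 0 and 2 of 4, in E and F 0 and 0 of 4, and in G 1 and 0 of 3. The genes of subfamilies E and F (Abce1, Abcf1, Abcf2 and Abcf3) have no membrane part, and Abce1 is known for recycling ribosomes.

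Abcb4, Abca4, Abcg4 and Abca3 were among the 5 that were lower. Abcg4, a relative of Abcg1 that also exports sterol, had 615, 621 and 593 scaled fragments in MPs and 44.8, 32.9 and 39.5 in APL cells (log2 fold change −3.94, SE 0.15, limma adjusted p = 7.6e-08). For Abcg1 itself the log2 fold change was 0.35. Abca4, a retinoid transporter of the retina, had 36.7 ± 11 scaled fragments in MPs and was at least 11.2-fold lower in APL cells. Abca3, a lipid transporter of lamellar bodies, had a log2 fold change of −1.47.

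Of the 9 that were higher, Abcc8, known as the sulfonylurea receptor of potassium channels, went from 0.937, 0.952 and 0 scaled fragments in MPs to 267, 293 and 267 in APL cells, at least 98.8-fold. Abcd2, a peroxisomal carrier of very long chain fatty acids, reached the highest FPKM of the ABC genes called, with 858 ± 157 against 12179 ± 143 scaled fragments and 5.25 against 74.1 FPKM (log2 fold change 3.84, SE 0.12, limma adjusted p = 3.2e-08). Abcc2, an exporter of conjugates like Abcc1, had 99.3, 79.0 and 80.3 scaled fragments in MPs and 1001, 675 and 675 in APL cells (log2 fold change 3.15). At 5.02 FPKM in APL cells it stood above Abcg2, but below Abcc1, Abcc4 and Abcc5. Abca9, Abca13 and Abcd4 had log2 fold changes of 2.76, 2.73 and 1.00. Abca5, Abcc3 and Cftr complete the 9 and were named after their values had been seen.

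**Figure D5:**
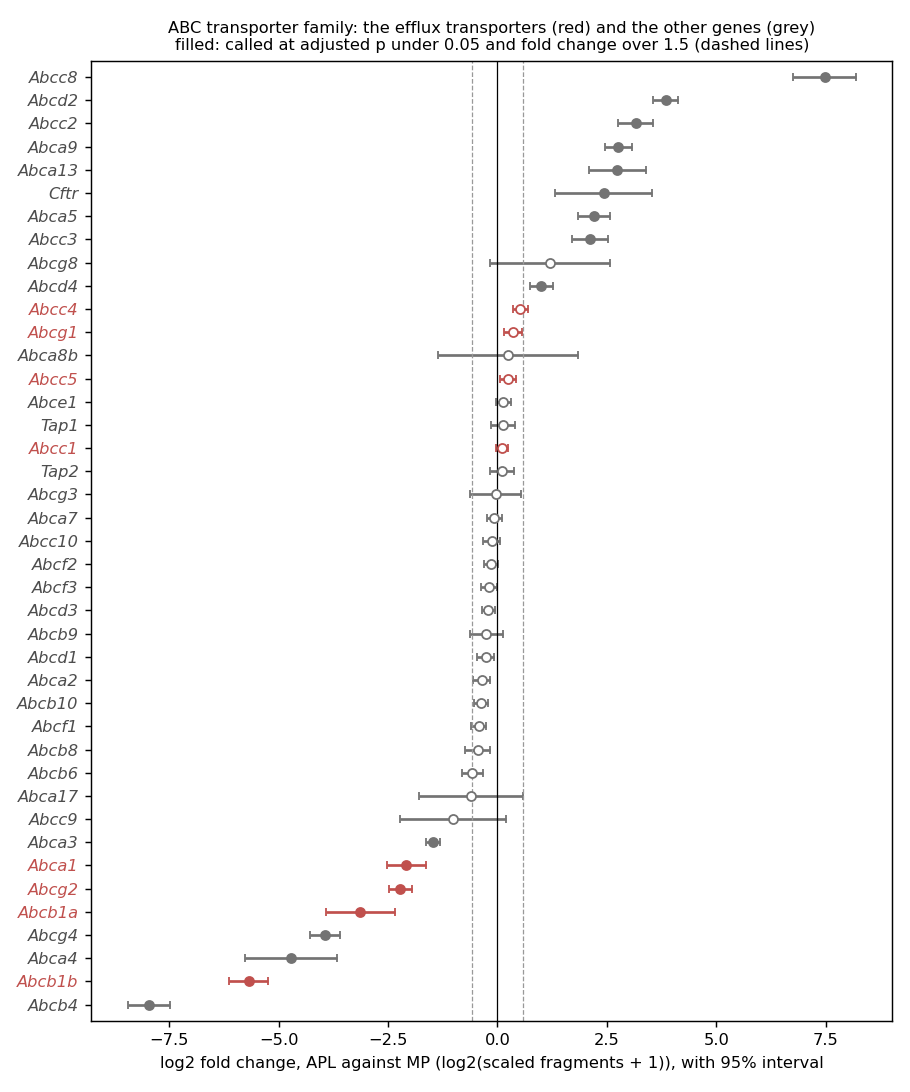
log2 fold change of APL cells against MPs with 95% intervals for the 8 exporters (red) and other ABC genes tested (grey, 1 of them not shown), on log2(scaled fragments + 1), sorted from lowest to highest. Filled points were called at an adjusted p under 0.05 and a fold change over 1.5, the limit marked by dashed lines. Abcb4 and Abcb1b lie at the lower end with −7.96 and −5.68 and Abcc8 at the upper end with 7.47. Values and intervals of genes at the limit of detection in a group depend on the pseudocount, as for Abcc8 in MPs and Abcb1a in APL cells. Over the alternative settings, Abcc8 ran from 1.64 to 9.17.

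Regulators and partners of drug exporters were also taken from lists. Of 12 tested xenobiotic, lipid and stress regulators, 4 were higher (Nr1i2, Pparg, Epas1 and Hif1a) and 2 lower (Ahr and Trp53), and these 6 of 12 are near the 46.1% of all genes called. Nr1i2, the gene of the pregnane X receptor that controls drug exporters in liver, was at least 22.3-fold higher but reached only 62.3 ± 3.42 scaled fragments. Pparg, a lipid-sensing receptor, rose from 0.156 to 5.05 FPKM and Hif1a, the oxygen-regulated factor, from 15.6 to 40.6 FPKM. Nfe2l2, the antioxidant response factor, fell short of the fold limit with a log2 fold change of −0.57 (limma adjusted p = 1.4e-04), and it passed that limit, at −0.60 to −0.59, without MP library 2 or APL library 2 or 3. Ahr, the dioxin receptor, had a log2 fold change of −4.79 and Trp53, the p53 gene, of −0.69.

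Of 9 drug uptake carriers, 3 were higher (Slco4a1, Slc22a4 and Slc46a1, with log2 fold changes of 1.87, 1.54 and 1.41) and 0 lower, beside 21.7% and 24.4% of all genes. The nucleoside carrier Slc29a1, a route of cytarabine into cells, was not called at −0.43. Among 12 genes of glutathione and conjugation, which supply the substrates of the ABCC exporters, 5 were higher and 3 lower, beside the same 21.7% and 24.4%. Glutathione reductase Gsr went from 110 to 682 FPKM (log2 fold change 2.63) and the transferase Gstm1 from 171 to 804 FPKM (2.21). The transferases Gstm5 and Gstp1 had log2 fold changes of −3.24 and −1.29. The genes of glutathione synthesis, Gclc, Gclm and Gss, were not called.

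Of 9 phosphodiesterases, which break down the cyclic nucleotides that Abcc4 and Abcc5 export, 5 were lower and 3 higher, beside 24.4% and 21.7% of all genes, and each of the 9 had groups without overlap, beside 70.9%. Pde5a and Pde4b had log2 fold changes of −5.50 and −2.36, and Pde1b and Pde8a of 3.25 and 2.64. Of 14 genes of porphyrin handling, whose products meet Abcg2, 8 were lower and 3 higher, beside 24.4% and 21.7% of all genes, with a median of −0.77. Alad and Cpox, enzymes of heme synthesis, had log2 fold changes of −2.21 and −1.86. The heme carrier Slc48a1 and the first enzyme Alas1 had log2 fold changes of 1.56 and 0.82. Of 9 anchors and partners of the exporters, 1 was lower, Sntb2 was higher and 7 were not called, among them the ezrin family (Ezr, Msn and Rdx) and the kinase Pim1. These 2 of 9 stand beside 46.1% of all genes called, and Pim1 passed the fold limit without MP library 3 (0.62).

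The cells compared also differed in markers of other cell types, and the part of this in the values above was not tested. The counts below stand beside 24.4% lower and 21.7% higher of all genes. Each sum is weighted toward its most abundant genes, so it does not stand for the whole list. Of 9 tested erythroid markers, 9 were lower in APL cells, and their summed level ranged from 2125 to 2646 FPKM in MPs and from 47.0 to 55.9 FPKM in APL cells, with Hbb-b1 at the limit of detection in the latter. Car1 and Car2, at 1406 and 491 FPKM on average, supplied most of this sum in MPs. Of 8 megakaryocyte markers, 6 were lower (78.4 to 115 against 3.64 to 5.49 FPKM), with Gp9 at the limit in APL cells. Of 8 stem cell markers, 7 were lower and 1, Ly6a, was higher (106 to 143 against 4.48 to 5.24 FPKM), and Slamf1 and Mecom were at the limit in APL cells. Of 8 mast cell and basophil markers, 6 were lower and 1 higher (82.3 to 101 against 52.3 to 61.0 FPKM), with Tpsb2 and Cma1 at the limit in APL cells. Granulocyte precursor markers were 3 higher and 2 lower of 8 (9417 to 11653 against 23880 to 28491 FPKM), and monocyte and macrophage markers 6 higher and 3 lower of 9 (303 to 460 against 1112 to 1199 FPKM). Most of the monocyte and macrophage sum was Lyz2, at 346 FPKM on average in MPs and 1092 FPKM in APL cells. The 3 lower genes of that list were Csf1r, Cx3cr1 and Ly86. B cell markers were 3 lower and 1 higher of 5 (12.9 to 15.5 against 7.08 to 9.50 FPKM), with Ebf1 at the limit in APL cells. T and NK cell markers were 1 lower of 3 tested (1.37 to 2.29 against 1.70 to 2.53 FPKM), with Cd3e and Gzma at the limit in every library, and markers of endothelium and stroma were 3 lower and 2 higher of 6 (11.3 to 14.1 against 3.44 to 4.78 FPKM), with Kdr and Cxcl12 at the limit in APL cells.

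For each member, the gene with the most similar course over the 6 libraries was found among 10310 genes, as the distance between log2 values centred on each gene's mean. The closest was Zfp217 to Abcc4, at 0.0226. Abcc1, Abcc5 and Abcg1 were nearest to Sec23ip (0.0378), Yy2 (0.0417) and Dynll2 (0.0467). Abcg2 was nearest to Minpp1, at 0.139, and the log2 fold change of both was −2.22. Abcb1a was nearest to Plxnc1 (0.253), Abca1 to Grlf1 (0.341) and Abcb1b to Ltbp3 (0.354). The match of Abcb1a depends on the pseudocount, because this gene was at the limit of detection in APL cells, and carries no meaning. The distances were shortest for the genes with the smallest changes, whose values also varied least.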

How the data were processed

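RNA of 3 MP and 3 APL libraries was extracted as total RNA and prepared with TruSeq kits. The submitters' processing notes name CASAVA 1.8, TopHat2 2.0.6 and mm10. In the study's methods, reads were checked with FastQC, trimmed with Cutadapt, mapped to mm9 by STAR and counted by HTSeq-count, and a fold change over 1.5 was required. Which tool wrote the table is not given in the sources used here. Its loci follow GRCm38, with starts counted from 0, so 1 was added. The authors deposited FPKM, which divides fragments by the length of the transcript. In the median over all genes tested, its values followed the library factor of the scaled fragments and not the library's total. That median log2 fold change was −0.082 in FPKM (pseudocount 0.1), −0.100 in scaled fragments and −0.228 with libraries scaled to the same total. Abcc1 had a log2 fold change of 0.106 in FPKM (pseudocount 0.1), 0.105 in scaled fragments and −0.026 with libraries scaled to the same total. Abcc5 did not follow this course, with 0.115, 0.237 and 0.106 in the same order. Beside FPKM the authors deposited a signal on the fragment scale, namely estimated fragments multiplied by a factor of the library. After division by the step of each library, between 90.2% and 91.4% of low values were whole within 0.02, too few to recover counts, so no count test was used.

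Genes reaching 1 in 3 or more libraries were tested with limma 3.58.1 in R 4.3.3 (lmFit, eBayes with trend) on log2(scaled fragments + 1), two-sided, with Benjamini-Hochberg adjustment over all 14595. Fold changes on this scale understate those of low genes. On simulated data with 14417 genes, 198 of 200 changed genes were recovered with 4 false calls. The simulation changed a far smaller part of the genes than was called here, none of them of low level. Its changes were well over the fold limit, and the same spread setting was used for every gene. It checks that the code runs as meant and gives no error rate for the calls reported. Single genes were also compared by exact permutation. No list was tested as a set. The counts of each list include genes at the limit of detection in a group, whose calls lend the counts no support. Values of some listed genes are not reported here.

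The 8 members and all lists were chosen with earlier results of these data known. Named were all members and, of each list, up to 2 lower and 2 higher genes of largest fold with a mean of at least 1 FPKM in a group. Genes outside this rule were named after their values were seen. They are those completing a count of 5 or fewer, those not called, the neighbours of Abcb1a on chromosome 5 and the cell type markers. Similar genes were sought among those with a mean of at least 100 scaled fragments. Promoters came from the RefSeq tables (GRCm38.p6). Protein-coding transcripts came from GENCODE models of an earlier build, used for identity and shared stretches only. Figures used matplotlib 3.10.9 in Python 3.11.15.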

Additional observations from a re-analysis of the deposited data

How the results depend on the processing

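Fold changes of the 8 members and of 78 other named genes, and counts of calls over all genes and over each list, were recomputed under 20 alternatives for the filter, pseudocount, unit, scaling, tool, threshold, library number and each library left out. Summed levels, shares, marker counts and likeness were not. The unadjusted P and the fold limit of 2 were applied to the fit as reported, so fold changes and adjusted p-values could not differ there. Abcb1b, Abcg2 and Abca1 were called lower in all 20, with log2 fold changes between −5.90 and −2.01, −2.35 and −1.97, and −2.22 and −0.60, the values nearest 0 coming from FPKM with a pseudocount of 1. With 1 library left out they lay between −5.81 and −5.57, −2.31 and −2.12, and −2.22 and −1.94. Abcb1a entered 16 alternatives, those whose filter the MP values passed, so its call there shows no stability, and its log2 fold change ran from −5.49 to −0.89 with pseudocounts of 0.1 and 10. Abcc4 (0.39 to 0.58) and Abcg1 (0.22 to 0.41) kept an adjusted p under 0.05 and a fold change under 1.5 in all 20. Abcc5 lay between 0.11 and 0.30. Abcc1 was −0.0261 with libraries scaled to the same total (adjusted p = 0.75) and −0.0260 with voom weights (0.75), and its adjusted p was under 0.05 in 1 of 20, with scaling by the median ratio (0.039). These 2 scalings moved the median of all genes by −0.13, and relative to that median Abcc1 was at 0.20 and 0.21, beside 0.21 in the fit as reported. The balance of calls depended on the scaling, with 4273 genes lower and 2753 higher at the same total, 3277 and 3567 with quantile normalization, and 3268 and 3397 with the median ratio. Genes called lower numbered 2205 with FPKM and a pseudocount of 1, over 13201 genes, and 3325 to 3586 without 1 library. Genes called higher lay between 2171 and 3567 (3016 to 3294 without 1 library). With a fold change over 2, 2427 genes were lower and 2171 higher. Other ABC genes called lower numbered 4 to 7 and higher 7 to 10. Of the 78 other named genes, 56 were called, and 9 of these lost the call in some alternative besides the fold limit of 2, namely 9330182L06Rik, Abca4, Adam22, Epas1, Rundc3b and Vldlr with FPKM and a pseudocount of 1, Msr1 with FPKM or without 1 library, Steap4 with a pseudocount of 10 or without APL library 1, and Nceh1 at the same total or with voom weights. The fold limit of 2 removed Alas1, Arl4c, Nceh1 and Trp53. Of the 22 not called, Dmtf1, Nfe2l2, Pim1 and Slc25a40 were called in some alternative, and 4 close to 0 changed sign. These were Crot (−0.0972 at the same total, −0.0976 with voom weights, −0.00278 to 0.0784 without 1 library), Lipa (−0.103, −0.104, −0.0475 to 0.123), Gss (−0.126, −0.129, −0.0819 to 0.137) and Gclm (−0.134 to 0.0161 without 1 library). A replicate block for the library number gave 3589 genes lower and 3164 higher, and no call of a member changed. Same-numbered libraries deviated together with r of 0.21, 0.042 and 0.21, and differently numbered ones with r from −0.34 to 0.20. With 3 libraries in a group, these values cannot decide whether the numbers pair the libraries. Counting noise limits Abcb1a in both groups and Abcb1b in APL cells.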
